A study of Mus musculus with 12 samples.

Results

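Complement mRNAs of primary mouse chondrocytes, the cells that make and maintain cartilage matrix, were followed across control cells and cells transfected with a plasmid. The 9 genes were chosen by symbol, as 7 components (C1ra, C1s1, C2, C3, C4b, Cfb and Masp1) and 2 regulators (Serping1 and Cd55), and each matched 1 of the 57010 Ensembl gene IDs in the count tables. All 12 libraries came from cells whose genotype was labelled Wild type: 4 were labelled Control, 4 were labelled WT, for the plasmid named Wildtype, and 4 were labelled with the SIRT5F101L mutant plasmid. SIRT5 is a mainly mitochondrial enzyme that removes malonyl and related groups from lysines. The labels say no more of the Wildtype plasmid, and what the Control cells received, how long after transfection RNA was taken, and the strain and age of the mice are not given in the sources used here. Nothing in the labels says that the 4 libraries of a group came from separate cultures or animals, so p-values measure only the spread between these samples, which may be technical.

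Complement is a cascade of plasma and tissue proteins that tags particles and cells for removal and recruits immune cells. In the classical pathway, C1q activates the proteases C1r and C1s, which cleave C4 and C2. In the lectin pathway, MASP proteases take the place of C1r and C1s, and in the alternative pathway factor D cleaves factor B, whose Bb fragment forms the convertase with C3b. All routes meet at C3, the central component, and are held back by inhibitors such as C1 inhibitor (Serping1) and by membrane proteins such as CD55, which speeds the decay of convertases. Cartilage cells make several of these proteins themselves, and complement has been studied in osteoarthritis, the disease named in the series title.

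Libraries held between 15095357 and 24242139 counts, so that a single count stood for 0.0401 to 0.0650 CPM, the count scaled to a common library size after TMM normalisation. Of the 9 genes, 7 passed the expression filter and were tested among 14253 genes. C2 and Cfb did not pass. The lowest count of a tested member in any library was 48. Sirt5 itself had 9 to 16 counts in Control, 1 to 9 in WT and 9 to 19 in SIRT5F101L libraries, and it did not pass the test in WT (log2 fold change -0.86, edgeR adjusted p 0.143) or SIRT5F101L (0.03, edgeR adjusted p 0.954). The gene counts thus do not show the plasmids, and the term plasmid groups rests on the labels alone. Chondrocyte markers were present, and the summed level of 9 of them ran from 9036 to 11339 CPM in Control, from 2813 to 2927 in WT and from 2293 to 2538 in SIRT5F101L. By the test 7 of these fell in each plasmid group, Matn3 the most (log2 fold change -3.53 and -4.07), while 2 rose in WT and 1 in SIRT5F101L. Over all tested genes 28.1% fell and 28.7% rose in WT, and 30.7% fell and 30.0% rose in SIRT5F101L. With libraries numbered in accession order within each label, SIRT5F101L replicate 1 stood apart from its group. Its counts differed from the other 3 libraries of that group by 8.2 to 8.92 times sampling noise (median over genes), where those 3 differed among themselves by 3.05 to 3.62 times. From the WT libraries it differed by 2.61 to 6.27 times, least from WT replicate 4, so by this measure it lay nearer to each WT library than to any of its own group. WT replicate 1 also differed less from SIRT5F101L replicates 2 to 4 (4.01 to 4.75 times) than from WT replicate 4 (5.8 times). It differed least from WT replicate 3 (3.63 times). Leaving out SIRT5F101L replicate 1 raised the share of all genes that differed between the plasmid groups from 0.0421% to 15.2%. Comparisons of the plasmid groups are therefore given with and without that library. It was singled out by these same counts, so the rise is not independent support for a difference between the plasmid groups.

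Against Control, complement mRNAs moved in both directions. C3 rose 21.8-fold in WT and 24.6-fold in SIRT5F101L, Masp1, Cd55 and Serping1 rose by less, and C1ra, C1s1 and C4b fell 2.94-fold to 3.76-fold. The test was edgeR's quasi-likelihood F test, with p-values adjusted over all genes (Benjamini-Hochberg) and called under 0.05. By it 7 of 7 tested members differed in WT, 4 higher and 3 lower. In this comparison 56.8% of all tested genes differed, 28.7% higher and 28.1% lower. The same 7 differed in SIRT5F101L, 4 higher and 3 lower, where 60.7% of all genes differed, 30.0% higher and 30.7% lower. For all 7 the Control libraries did not overlap with those of either plasmid group, a property of 53.5% of all genes for WT and 51.3% for SIRT5F101L. The median log2 fold change of the 7 was 0.48 in WT, against -0.01 over all genes, and 0.68 in SIRT5F101L, against -0.02. With 4 higher and 3 lower, each median is the value of Serping1 and does not describe a shift of the 7 together. The comparisons share the Control libraries, so their likeness is not independent support of either.

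**Figure D1:**
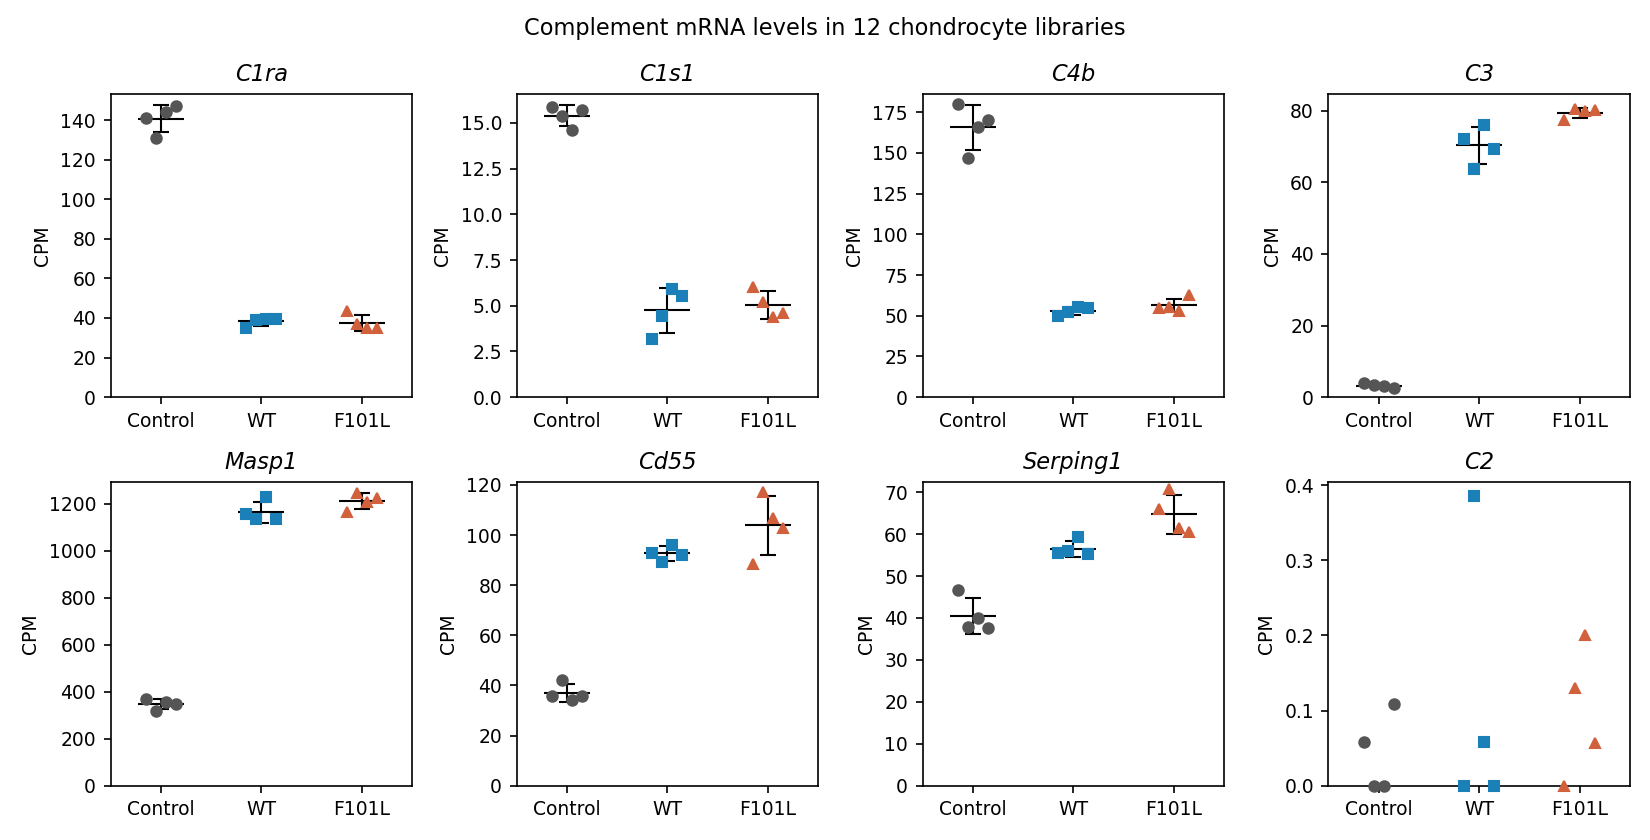
Levels of 8 complement mRNAs in CPM (vertical axes, starting at 0) in 4 Control, 4 WT and 4 SIRT5F101L (F101L) libraries. Each symbol is a library, and the bars give the mean ± SD of 4, left out for C2, whose highest count was 6. The Control libraries lie apart from both plasmid groups in every panel but that of C2.

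C1ra (ENSMUSG00000055172), which encodes C1r, the first protease to be activated in the C1 complex, had 141, 131, 144 and 147 CPM in Control replicates 1 to 4. It had 34.7, 39.0, 39.7 and 39.6 CPM in WT and 43.4, 37.0, 34.7 and 35.0 CPM in SIRT5F101L. The highest plasmid library, SIRT5F101L replicate 1, lay far below the lowest Control library, and the plasmid groups overlapped. The mean fell from 141 ± 7.10 CPM (SD, n = 4) to 38.3 ± 2.38 in WT, 3.69-fold (log2 fold change -1.88, SE 0.08, edgeR adjusted p 2.34e-14). In SIRT5F101L it fell to 37.5 ± 4.02 CPM, 3.76-fold (-1.91, SE 0.08, edgeR adjusted p 1.78e-14).

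C1s1 (ENSMUSG00000038521), which encodes C1s, the protease that C1r activates and that cleaves C4 and C2, was measured at lower counts. It had 15.9, 15.4, 14.6 and 15.7 CPM in Control, 3.16, 4.43, 5.89 and 5.56 in WT, and 6.04, 5.20, 4.37 and 4.59 in SIRT5F101L. The Control libraries were close together and all plasmid libraries lay below them, with WT replicate 1 the lowest. The fall was 3.25-fold in WT (log2 fold change -1.70, SE 0.15, edgeR adjusted p 1.03e-08) and 3.06-fold in SIRT5F101L (-1.61, SE 0.15, edgeR adjusted p 1.77e-08). The ratio of C1ra to C1s1, per kilobase of exon, ran from 8.93 to 10.4 in Control, 7.08 to 11.5 in WT and 7.47 to 8.33 in SIRT5F101L. The Control and WT ranges overlapped, and the 4 SIRT5F101L ratios lay below the Control range but within the WT range. WT replicates 3 and 4, at 7.08 and 7.48, lay below the Control range as well. The ratio carries no test.

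C4b (ENSMUSG00000073418), which encodes the C4 protein that C1s cleaves and that forms part of the C3 convertase, had 180, 147, 166 and 170 CPM in Control. It had 49.9, 52.1, 55.2 and 54.5 CPM in WT and 54.6, 55.2, 53.2 and 62.5 in SIRT5F101L. All plasmid libraries lay well below the lowest Control library, and the plasmid groups overlapped. The mean fell from 166 ± 13.7 CPM (SD, n = 4) to 52.9 ± 2.43 in WT (log2 fold change -1.65, SE 0.07, edgeR adjusted p 7.98e-14) and to 56.4 ± 4.18 in SIRT5F101L (-1.56, SE 0.07, edgeR adjusted p 1.79e-13).

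The 3 members that fell have near-identical copies in the mouse genome, which bears on their counts. In GENCODE M21 transcripts, C1ra matched C1rb at 97.9% over 2432 bases, C1s1 matched C1s2 at 96.0% over 2644 bases, and C4b matched C4a at 96.0% over 5378 bases. Of C1s1 exon sequence, 18.4% is also shared with Gm16567 on the opposite strand. The copies were counted at low levels: C1rb had 1 to 6 counts in Control, 1 to 3 in WT and 2 to 5 in SIRT5F101L, and C1s2 had 0 to 2, 1 to 9 and 1 to 4. C4a, at 1.74 ± 0.475 CPM (SD, n = 4) in Control, did not pass the test in WT (log2 fold change 0.20, 95% interval -0.44 to 0.84, edgeR adjusted p 0.602) or SIRT5F101L (0.11, -0.53 to 0.76, edgeR adjusted p 0.775). Reads that fit a gene and its copy equally may have been left out by the authors' counting, so the levels of C1ra, C1s1 and C4b are uncertain in this respect, which was not tested. C3 and Serping1 had no copy of at least 95% identity.

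C3 (ENSMUSG00000024164), the component at which all pathways meet, showed the largest change of the 7. It had 3.83, 3.30, 3.14 and 2.62 CPM in Control, from 48 to 66 counts. It had 72.1, 63.8, 76.1 and 69.2 CPM in WT and 77.4, 80.6, 79.8 and 80.1 in SIRT5F101L. Every plasmid library lay far above the highest Control library, and the 4 SIRT5F101L libraries were all above the highest WT library. The rise was 21.8-fold in WT (log2 fold change 4.45, SE 0.10, edgeR adjusted p 1.92e-18) and 24.6-fold in SIRT5F101L (4.62, SE 0.10, edgeR adjusted p 1.02e-18).

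Promoter windows, the 250 bases before an annotated start, were found in the RefSeq table (build GRCm38.p6) for C3, Cd55, C1ra and C1s1, the last with 2 starts. No entry was found for C2, C4b, Cfb, Serping1 and Masp1. They were searched on both strands for 4 short motifs: TTGCNNAA (C/EBP type), TTCNNNGAA (STAT type), GAAANNGAA (interferon-stimulated response type) and GGGNNTTTC (NF-kappa B type). Of all 32817 windows of this length, 9.57%, 7.01%, 7.12% and 3.72% held a match. The C3 window held 1 match, to TTGCNNAA, which began 45 bases before the start. The first of the C1s1 windows held 1 match, to the same motif on the other strand, which began 242 bases before it. The windows of C1ra and Cd55 and the other C1s1 window held none of the 4. The windows of C3, the member that rose most, and C1s1, which fell, are shown from 5′ to 3′ in the direction of the gene, with the match in capitals. C3 lies at chr17:57228137-57228386 on the minus strand, and C1s1 at chr6:124542360-124542609 on the minus strand.
C3: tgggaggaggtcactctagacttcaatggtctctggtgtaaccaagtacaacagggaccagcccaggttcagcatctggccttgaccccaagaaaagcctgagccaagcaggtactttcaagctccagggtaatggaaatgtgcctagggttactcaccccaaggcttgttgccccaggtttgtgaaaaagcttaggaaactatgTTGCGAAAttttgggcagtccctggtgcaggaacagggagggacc
C1s1: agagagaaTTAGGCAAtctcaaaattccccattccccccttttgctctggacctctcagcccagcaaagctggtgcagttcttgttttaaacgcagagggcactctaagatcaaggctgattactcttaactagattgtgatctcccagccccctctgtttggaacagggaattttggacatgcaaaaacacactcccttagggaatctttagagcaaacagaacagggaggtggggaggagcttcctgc
A motif of the same type was thus found before 1 gene that rose and 1 that fell. A match describes letters only, not binding of a factor.

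Masp1 (ENSMUSG00000022887), whose transcripts encode the lectin pathway protease MASP-1 and, by alternative splicing, MASP-3 and MAp44, had 370, 317, 354 and 346 CPM in Control. It had 1155, 1134, 1228 and 1137 CPM in WT and 1165, 1246, 1208 and 1225 in SIRT5F101L. All plasmid libraries lay far above the highest Control library, and the plasmid groups overlapped. The mean rose from 347 ± 21.8 CPM (SD, n = 4) to 1164 ± 44.0 in WT, 3.36-fold (log2 fold change 1.75, SE 0.06, edgeR adjusted p 1.95e-15). In SIRT5F101L it rose to 1211 ± 34.3 CPM, 3.49-fold (1.80, SE 0.06, edgeR adjusted p 1.11e-15). Counts per gene do not tell which of the 3 proteins the added mRNA encodes.

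Cd55 (ENSMUSG00000026399), which encodes the membrane protein that speeds convertase decay, had 35.7, 42.1, 34.2 and 35.7 CPM in Control, 92.9, 89.4, 96.2 and 92.1 in WT, and 88.5, 117, 107 and 103 in SIRT5F101L. The WT libraries were close together, and SIRT5F101L replicate 1 was the lowest of all plasmid libraries while the other 3 were the highest. The rise was 2.51-fold in WT (log2 fold change 1.33, SE 0.08, edgeR adjusted p 2.23e-11) and 2.80-fold in SIRT5F101L (1.49, SE 0.08, edgeR adjusted p 3.40e-12). Its copy Cd55b, 93.2% identical over 1053 bases, had 0 to 2 counts in Control, 0 to 3 in WT and 0 to 4 in SIRT5F101L.

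Serping1 (ENSMUSG00000023224), which encodes the C1 inhibitor that inactivates C1r, C1s and MASP proteases, changed least of the 7. It had 46.6, 37.8, 39.9 and 37.6 CPM in Control, 55.4, 55.9, 59.2 and 55.3 in WT, and 66.1, 70.7, 61.5 and 60.6 in SIRT5F101L. The 3 groups did not overlap, with Control lowest and SIRT5F101L highest. The rise was 1.39-fold in WT (log2 fold change 0.48, SE 0.08, edgeR adjusted p 2.09e-05) and 1.60-fold in SIRT5F101L (0.68, SE 0.08, edgeR adjusted p 2.10e-07).

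C2 and Cfb, the serine proteases that form the catalytic part of the classical and alternative C3 convertases, gave no usable level. C2 (ENSMUSG00000024371) had 1, 0, 0 and 2 counts in Control, 0, 6, 1 and 0 in WT, and 0, 2, 5 and 1 in SIRT5F101L. Of the 12 libraries, WT replicate 2 and SIRT5F101L replicate 3 were above the floor of 3 counts that a count of 0 allows. Cfb (ENSMUSG00000090231) was listed at 0 in all 12 libraries, and so was Gm20547, a gene whose exons run through both. In GENCODE M21, 79.5% of Cfb exon sequence and 42.8% of C2 exon sequence is shared with other genes on the same strand. Reads that fit overlapping genes may have been left uncounted. Whether Cfb mRNA was absent or uncounted cannot be told apart from these tables.

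**Figure D2:**
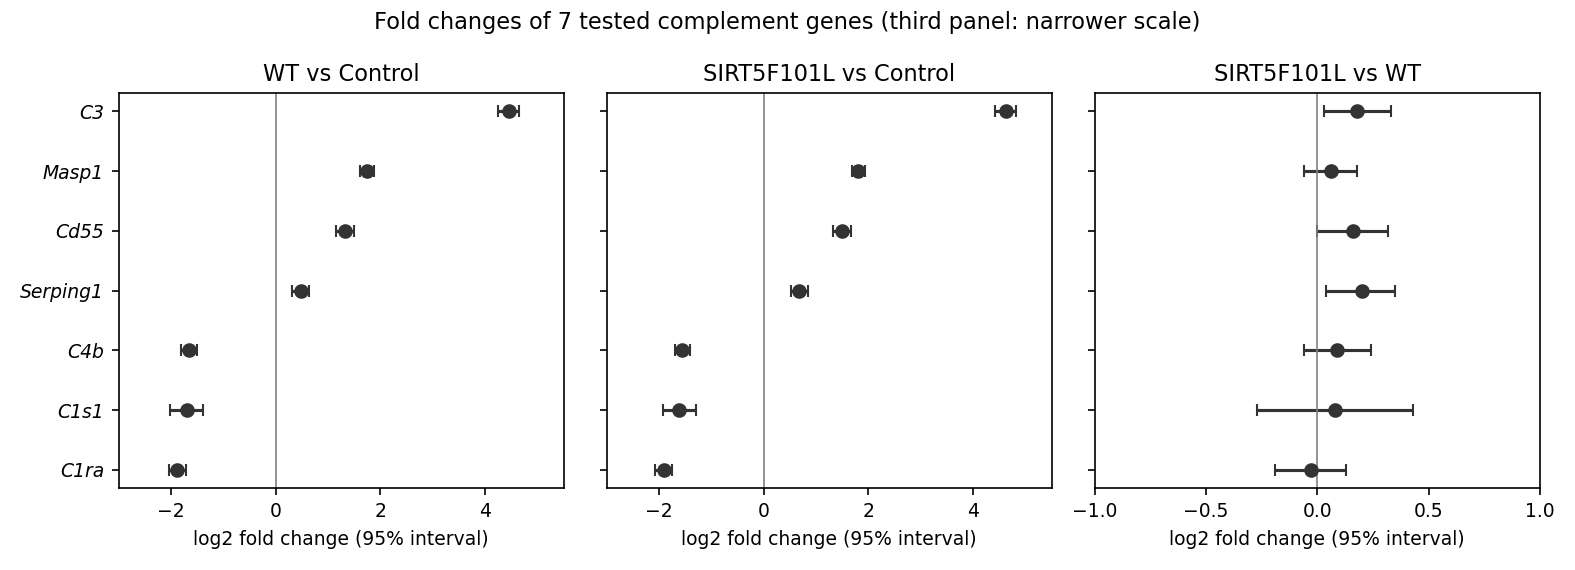
Log2 fold changes (horizontal axes) of the 7 tested complement mRNAs by edgeR in 3 comparisons, with 95% intervals; the right panel has a narrower scale. C3 lies at 4.45 and 4.62 against Control, C1ra, C1s1 and C4b lie between -1.91 and -1.56, and all 7 lie between -0.03 and 0.20 between the plasmid groups.

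Between the plasmid groups, 0 of 7 members differed by edgeR at an adjusted p under 0.05, where 0.0421% of all genes did, and DESeq2 called 0 as well. At an unadjusted p under 0.05 there were 2 of 7, and 1701 of all 14253 genes. Those were C3 (log2 fold change of SIRT5F101L over WT 0.18, 95% interval 0.03 to 0.33, edgeR adjusted p 0.371) and Serping1 (0.20, 0.04 to 0.35, edgeR adjusted p 0.365). The same pair did not overlap between the plasmid groups, as was the case for 4.02% of all genes. The intervals were -0.19 to 0.13 for C1ra, -0.27 to 0.43 for C1s1, -0.06 to 0.24 for C4b, 0.00 to 0.32 for Cd55 and -0.06 to 0.18 for Masp1. The p-values do not show that the plasmids act alike. Without SIRT5F101L replicate 1, Cd55 passed (0.23, edgeR adjusted p 0.0160, against 0.16 and 0.423 with it), in a fit that called 15.2% of all genes. In that fit the other 6 did not pass by edgeR, among them C3 (0.19, adjusted p 0.0642) and Serping1 (0.19, adjusted p 0.0874), and C1ra was at -0.11, C1s1 at -0.01, C4b at 0.11 and Masp1 at 0.08.

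The order of levels was read per kilobase of exon, since longer mRNAs give more counts. In Control, C1ra was highest at 47.3 ± 2.38 CPM per kilobase (SD, n = 4), followed by Masp1 at 35.3 ± 2.22, C4b at 29.1 ± 2.40, Serping1 at 17.4 ± 1.83, Cd55 at 7.61 ± 0.724 and C1s1 at 4.93 ± 0.187. C3 was lowest of the 7 at 0.627 ± 0.0970. Neighbours in that order did not overlap in Control. In WT, Masp1 led at 118 ± 4.47 CPM per kilobase, followed by Serping1 at 24.3 ± 0.792, Cd55 at 19.1 ± 0.585, C3 at 13.7 ± 1.0, C1ra at 12.8 ± 0.798, C4b at 9.29 ± 0.426 and C1s1 at 1.52 ± 0.395. C3 and C1ra overlapped there. The order was the same in SIRT5F101L, with C3 at 15.5 ± 0.274 and C1ra at 12.6 ± 1.35, which did not overlap. The longest transcript in place of the exon union put Masp1 at 64.9 CPM per kilobase in Control, above C1ra at 47.3, so the order of that pair in Control depends on the length used.

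**Figure D3:**
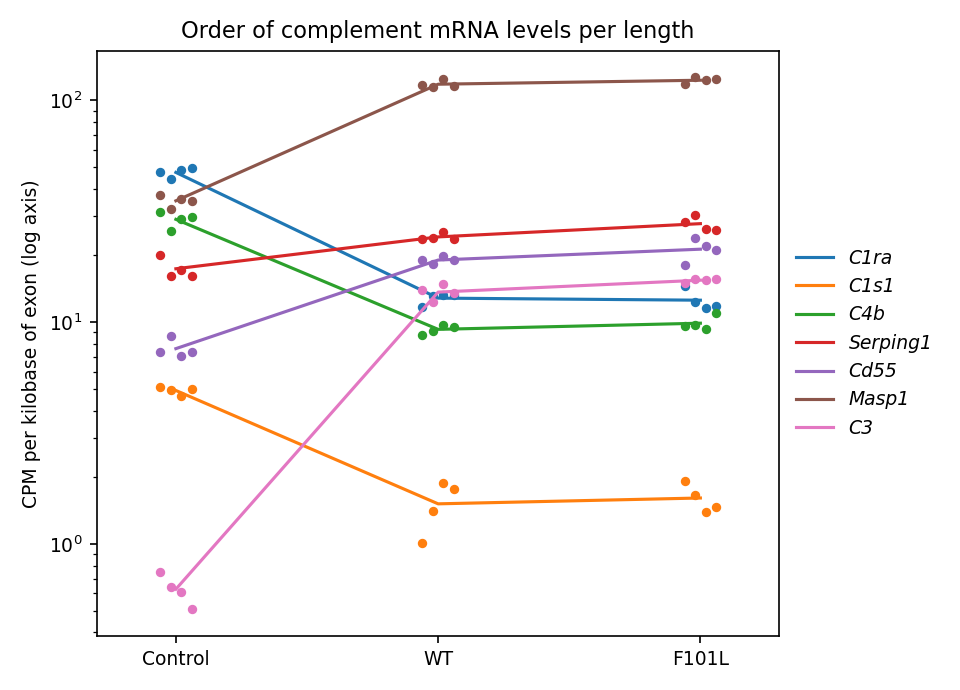
CPM per kilobase of exon (vertical log axis) of 7 complement mRNAs in Control, WT and SIRT5F101L (F101L) libraries; points are libraries and lines join group means. C3 moves from the lowest place, at 0.627, to above C1ra and C4b in both plasmid groups, and Masp1 takes the highest place.

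Ratios within a library, per kilobase, set components beside their regulators; they carry no test. The level of C3 was 0.0171 to 0.0248 times that of C4b in Control, 1.36 to 1.60 times in WT and 1.42 to 1.66 times in SIRT5F101L. Serping1, the inhibitor, was at 0.297 to 0.382 times the summed level of C1ra and C1s1 in Control. It was at 1.58 to 1.88 times that sum in WT and 1.73 to 2.16 times in SIRT5F101L. The sum leaves out Masp1, which also encodes a target of the inhibitor. Masp1 rose from 35.3 CPM per kilobase in Control to 118 in WT and 123 in SIRT5F101L. The ratio therefore does not describe the inhibitor against all its targets. Cd55 was at 9.86 to 14.4 times the level of C3 in Control. In WT it was at 1.34 to 1.48 times and in SIRT5F101L at 1.21 to 1.53 times. With the longest transcript as length, a choice made after seeing the data, Cd55 was at 15.3 to 22.3, 2.07 to 2.3 and 1.87 to 2.37 times the level of C3. The other ratios moved by less than 1.5 times. The 9 genes together held 0.0688% to 0.0748% of a Control library's counts, 0.146% to 0.158% in WT and 0.150% to 0.164% in SIRT5F101L. Masp1 made up 45.7% to 46.8% of these counts in Control and 77.3% to 78.9% in the plasmid groups.

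Other genes of the pathway were read from a list of 49, of which 23 were tested. In WT, 16 of the 23 differed by edgeR, 2 higher and 14 lower, where 28.7% of all genes were higher and 28.1% lower. In SIRT5F101L 14 differed, 1 higher and 13 lower, where 30.0% of all genes were higher and 30.7% lower. Called in either direction were 56.8% and 60.7% of all genes, so the 14 of 23 in SIRT5F101L lay at the share over all genes. The median log2 fold change of the 23 was -0.78 in WT, against -0.01 over all genes, and -0.75 in SIRT5F101L, against -0.02. Between the plasmid groups 0 of 23 differed by edgeR and 0 by DESeq2, with 2 at an unadjusted p under 0.05 (Colec12 and C1qbp), against 1701 of all 14253 genes. Without SIRT5F101L replicate 1, both passed by edgeR, in the fit that called 15.2% of all genes. Colec12 was at 0.17 (adjusted p 0.0488, against 0.16 and 0.364 with that library), and C1qbp at -0.28 (adjusted p 0.00262, against -0.19 and 0.380).

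Among the other regulators some inhibitors fell, while Serping1 and Cd55, the regulators among the members, rose. Of all genes, 28.1% fell in WT and 30.7% in SIRT5F101L. Cfi, which encodes factor I, the protease that cleaves C3b and C4b, fell (-2.03 and -1.94), at 1 to 16 counts in the plasmid libraries. C4bp, an inhibitor of the classical convertase (-1.43 and -1.62), and Cd59a and Cd59b, which block the membrane attack complex (-0.78 and -0.75, -0.50 and -0.53), fell too. Cr1l, the mouse membrane regulator Crry (0.05 and 0.01), Cd46 (-0.05 and 0.25) and Clu (0.06 and 0.10) did not pass in either comparison. In Control, mean levels were 78.7 CPM for Cr1l, 41.7 for Clu and 2.17 for Cd46. Those that fell had 1.79 (Cfi), 6.59 (C4bp), 24 (Cd59a) and 9.44 (Cd59b). The sign of Cr1l turned with upper-quartile scaling.

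**Figure D4:**
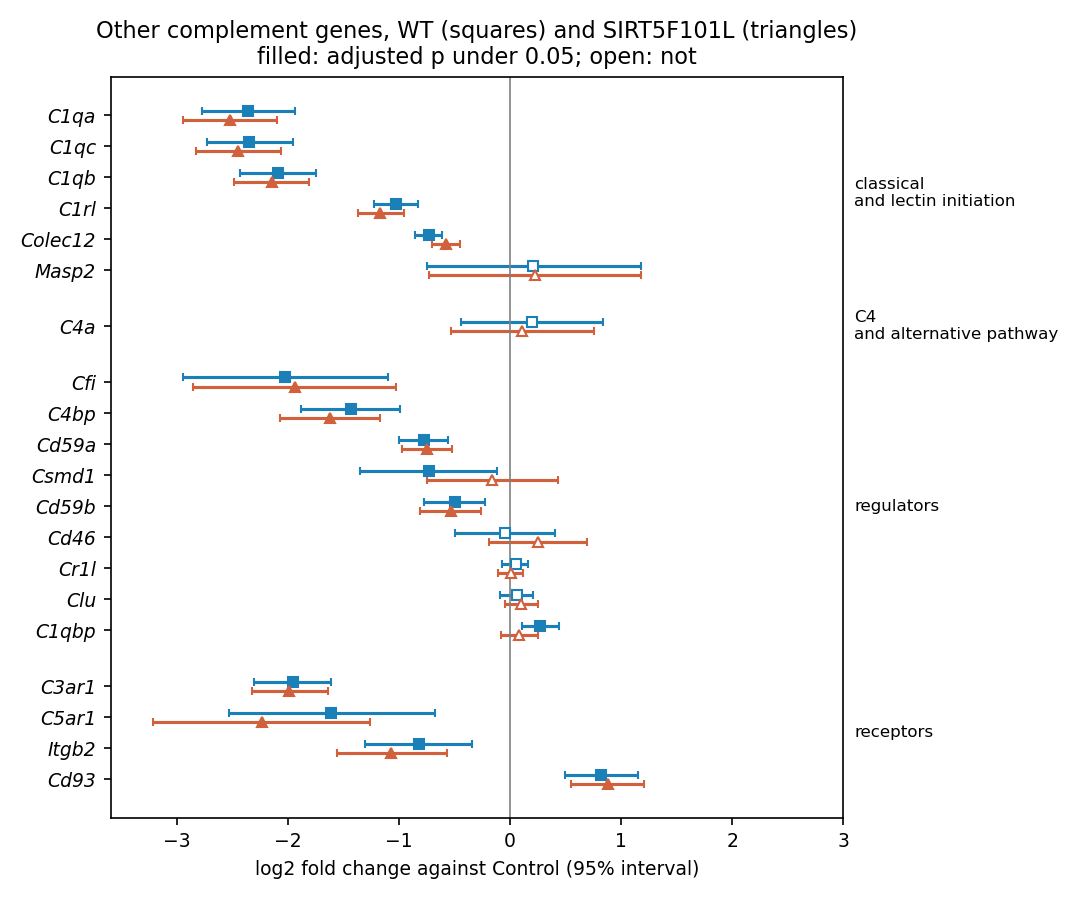
Log2 fold changes against Control (horizontal axis, with 95% intervals) of other complement genes in WT (squares) and SIRT5F101L (triangles), grouped by role; filled symbols have an edgeR adjusted p under 0.05. The receptor gene Cd93 lies at 0.82 and 0.88, while the C1q chains and C3ar1 lie near or below -1.96.

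At the head of the classical pathway, the 3 chains of C1q fell with the C1 proteases. C1qa had 10.8 ± 1.04 CPM (SD, n = 4) in Control, 2.10 ± 0.372 in WT and 1.86 ± 0.698 in SIRT5F101L, a log2 fold change of -2.36 and -2.52 (edgeR adjusted p 3.42e-09 and 1.33e-09). C1qb changed by -2.09 and -2.15 and C1qc by -2.35 and -2.45, and for none of the 3 did Control overlap with a plasmid group. Of all genes, 53.5% did not overlap between Control and WT, and 51.3% between Control and SIRT5F101L. C1rl, a relative of C1r, fell (-1.03 and -1.17), and so did Colec12, a membrane collectin (-0.73 and -0.58). Masp2, the lectin pathway protease that cleaves C4 and C2, had 3 to 18 counts and did not pass (0.21 and 0.22), and 54.9% of its exon sequence is shared with Tardbp on the other strand. Of the receptors, C3ar1, for the fragment C3a, fell from 9.01 ± 0.597 CPM to 2.3 ± 0.407 in WT and 2.25 ± 0.433 in SIRT5F101L (-1.96 and -1.99, edgeR adjusted p 4.03e-09 and 2.97e-09). C5ar1 (-1.61 and -2.24) and Itgb2 (-0.82 and -1.07) fell as well, and Cd93 rose (0.82 and 0.88). Without Control replicate 1, which had 8.25 CPM against 3.44 to 4.77 in the other Control libraries, Itgb2 was at -0.52 in WT (edgeR adjusted p 0.0370). C1qbp, a mainly mitochondrial protein that binds C1q, rose in WT (0.27, edgeR adjusted p 0.00637) and did not pass in SIRT5F101L (0.08, edgeR adjusted p 0.373). Csmd1 differed in WT (-0.73, edgeR adjusted p 0.0397) and did not pass without any 1 of 6 libraries, among them Control replicate 2 (-0.41, edgeR adjusted p 0.240), or with edgeR's robust prior (adjusted p 0.0520).

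C1q and C3ar1 are made chiefly by macrophages, so a macrophage and leukocyte list was read beside them. None of its 9 markers was at 0, and their summed level was 177 to 213 CPM in Control, 136 to 154 in WT and 143 to 185 in SIRT5F101L. In WT 8 of the 9 fell and 1 rose, where 28.1% of all genes fell and 28.7% rose. In SIRT5F101L 7 fell and 1 rose, where 30.7% of all genes fell and 30.0% rose. Adgre1, which encodes the macrophage marker F4/80, fell by 2.03 and 1.89 on the log2 scale, Tyrobp by 2.08 and 2.38, and Csf1r by 0.92 and 0.72, while Cd14 rose by 2.05 and 2.27. In bulk samples, fewer cells of a type and less RNA per cell cannot be told apart. The part of macrophage RNA in the fall of C1q, C3ar1, C1ra, C1s1 and C4b was not tested. Of 5 fibroblast markers, 4 fell and 1 rose in each plasmid group, to be read beside the same shares of all genes. Their summed level was 17269 to 20461 CPM in Control, 6064 to 6887 in WT and 5915 to 6862 in SIRT5F101L. None of 4 endothelial markers was called by edgeR, at a summed 2.60 to 4.53 CPM over all libraries. Hepatocyte markers, of the organ that makes most plasma complement, did not exceed a summed 0.347 CPM in any library.

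**Figure D5:**
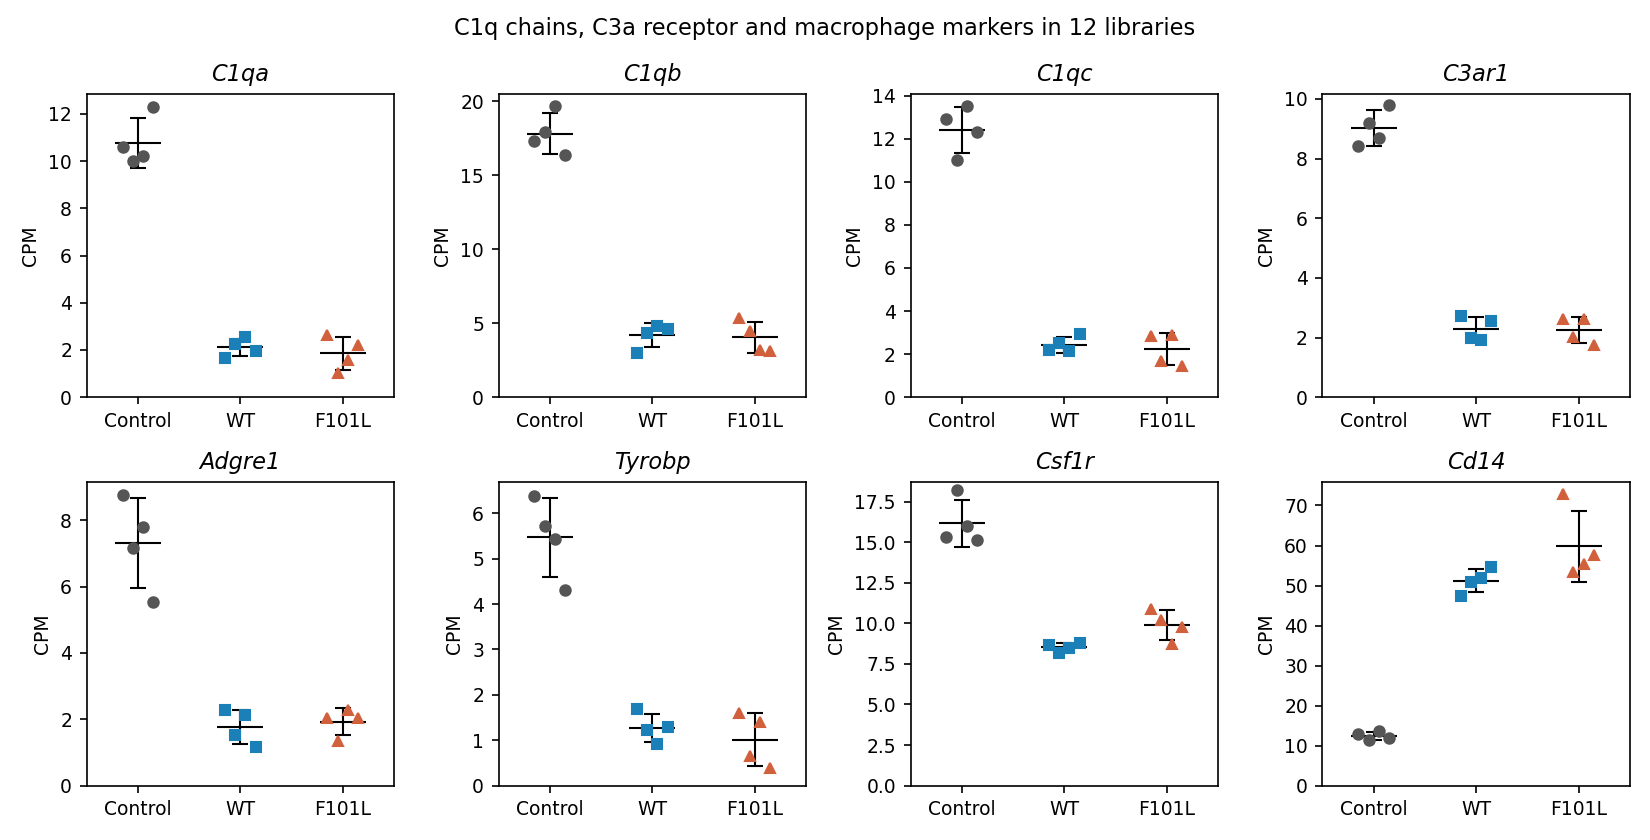
Levels in CPM (vertical axes, starting at 0) of the 3 C1q chains, the C3a receptor gene C3ar1 and 4 macrophage markers in 4 Control, 4 WT and 4 SIRT5F101L (F101L) libraries, with the mean ± SD of each group. All but Cd14 are higher in the Control libraries, and Cd14 goes from a mean of 12.4 CPM to 51.3 and 59.8.

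None of the genes for the terminal components passed the expression filter, nor did several of the alternative pathway. C6, C7, C8a, C8b and C9 had 0 to 5 counts in every library. C8g, which encodes the gamma chain of C8 and was named after its values were seen, had 8 to 27 counts in Control, 1 to 6 in WT and 2 to 8 in SIRT5F101L, and it was not tested. Hc, which encodes C5, had 0 to 2 counts in Control and 1 to 6 in the plasmid libraries. Cfd, which encodes factor D, had 3 to 25 counts in Control and 0 to 6 in the plasmid libraries and was not tested. Cfp, which encodes properdin, was listed at 0, as was every other X-linked ID of the tables (2414 in all, by GENCODE M21). Itgam, the partner of Itgb2 in complement receptor 3, and a gene named after its values were seen, was also listed at 0 in all 12 libraries. Of its exon sequence, 68.7% is shared with another gene on the same strand.

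Genes outside the complement lists with the most similar profile were found by the root mean square difference of log2 CPM over 12 libraries, after each gene was centred on its mean, among 11455 genes. For C3 these were Havcr2, Slc6a17 and Bmp2, at 0.207, 0.208 and 0.227. For Masp1 they were Sod3, Gnb4 and Slc39a14, at 0.056, 0.069 and 0.077. C4b was nearest to Igdcc4, Palmd and App (0.076 to 0.089), C1ra to Olfml3, Ccn5 and Igfbp2 (0.085 to 0.088), and C1s1 to Rgs10, Rcn3 and Serpinf1 (0.168 to 0.187). Cd55 was nearest to Mastl, Epb41l3 and Zfp52 (0.078 to 0.082), and Serping1 to Me1, Tpm3 and Hpcal1 (0.084 to 0.094). The measure carries no test.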

How the data were processed

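Poly(A)-selected RNA of 12 libraries was sequenced as paired-end reads, per the labels' protocols. Each deposited file gives raw whole-number counts by Ensembl gene ID. The submitters' processing notes name FastQC 0.11.9, HISAT2 2.2.1, HTSeq 2.0.2, DESeq2 1.38.3 and the build GRCm39 (mm39). The annotation, strand setting and treatment of ambiguous reads are not given in the sources used here. Of 57010 IDs, 52029 were given a symbol from a supplied table.

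No 2 libraries were identical, and counts differed by 2.55 to 5.8 times sampling noise within Control and WT, and by 3.05 to 8.92 times within SIRT5F101L. edgeR 4.0.16 (R 4.3.3) was used with TMM scaling and its default expression filter. All 12 libraries entered 1 quasi-likelihood model with a mean per group, and tests were 2-sided. CPM values are TMM-scaled, and 95% intervals use the fit's SE. The pipeline was tested on simulated data. Exon lengths, overlaps and copies (BLAST 2.17.0, hits of at least 50 bases) come from GENCODE M21 on GRCm38, which is not the build of the files. Promoters come from RefSeq GRCm38.p6.

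Alternatives were RLE and upper-quartile scaling, 2 other filters, a robust prior, fits of 8 libraries, DESeq2 1.42.0, a transcript length trend as offset, and leaving out each library. Replicate numbers follow accession order. The members, lists and rule for named genes (the members, their paralogs, defining factors, and listed genes called against Control with a mean of at least 1 CPM) were chosen with earlier results of these data known. An item of the pathway list is not reported here.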

Additional observations from a re-analysis of the deposited data

Results flagged for a closer look

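Libraries were screened for a value far from the other 3 of its group by Dixon's ratio of gap to range, at its 95% critical value, over 92 sets of gene and group. The screen found 8, where chance gives about 1 in 20, or 4.6. Among the members, C1ra was low in WT replicate 1 (34.7 CPM, against 39.0 to 39.7 in the others) and Serping1 was high in WT replicate 3 (59.2 CPM, against 55.3 to 55.9). C2 was at 0.385 CPM in WT replicate 2, from 6 counts, against 0 to 0.0578. Among the other complement genes, Colec12 (551 CPM, against 484 to 493) was high and C4bp (1.17 CPM, against 2.41 to 2.44) was low in SIRT5F101L replicate 2. C1qbp was high in SIRT5F101L replicate 1 (114 CPM, against 88.4 to 90.7), Cd59b in Control replicate 3 (11.8 CPM, against 8.52 to 8.95), and Itgb2 was low in WT replicate 2 (2.37 CPM, against 3.11 to 3.14).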

How the results depend on the processing

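Against Control, all 7 members kept their direction and their side of the threshold in each of the 20 alternatives, in WT and in SIRT5F101L, and 7 were called whichever library was left out. C3 ran from 4.36 to 4.53 in WT and from 4.52 to 4.71 in SIRT5F101L, and Serping1, the smallest change, from 0.43 to 0.57 and from 0.63 to 0.82. Of the other complement genes, 15 to 17 were called in WT and 14 to 15 in SIRT5F101L when a library was left out. Between the plasmid groups, leaving out a library gave 0 to 1 members called and 0 to 2 of the other genes, the highest counts without SIRT5F101L replicate 1. In that comparison with a library left out, C1ra ran from -0.11 to 0.01 and C1s1 from -0.08 to 0.20, so their signs turned. Signs of genes that did not pass also turned against Control. Cr1l was at 0.00 in WT and -0.04 in SIRT5F101L with upper-quartile scaling, at -0.04 in SIRT5F101L with the length offset, and ran from -0.01 to 0.02 in SIRT5F101L with a library left out. Likewise Masp2 ran from -0.02 to 0.55 in WT and from -0.01 to 0.44 in SIRT5F101L, and Cd46 from -0.12 to 0.00 in WT. In SIRT5F101L, C4a ran from -0.20 to 0.32, Csmd1 from -0.42 to 0.16 and C1qbp from -0.01 to 0.12. With the length offset Clu (0.24) and C1qbp (0.21) passed in SIRT5F101L. The cause was not tested. No paired analysis was possible because the labels give no replicate numbers shared between groups. Intervals and floors cover the spread between libraries or counting error only. Low counts limit C2, Cfd, Hc and the copies of members, and why these counts are low was not tested.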
